A study of Mus musculus with 12 samples.

Results

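RNA of mouse eyes taken at the start of the subjective day, at circadian time (CT) 2, was compared with RNA of eyes taken late in the subjective night, at CT22. The comparison rests on 4 of the 12 libraries of the study: those of CT2 and of CT22 in 2 genotypes, 1 library for each genotype and time. They were chosen by their time labels alone, and genotype was kept as a block. WT animals carried an intact Nr3c1 gene, which encodes the glucocorticoid receptor, and no Cre. In cKO animals, which were Cre-positive, Nr3c1 was deleted in the retina only. The sources used here give neither the Cre driver nor the mouse strain. All animals were males aged 12 weeks housed for 2 weeks under alternating light and dark phases of 12 h each. Light was then withheld, and whole eyes were removed on day 2 of constant darkness. No drug was given. Each library held equal amounts of RNA from 3 mice, so each time was represented by 2 pools of animals. The remaining 8 libraries, of CT6, CT10, CT14 and CT18, entered the statistical model only to estimate the spread between pools, except where they are named. All p-values therefore measure the spread between pools, and no single animal was measured. No 2 pools shared both genotype and time, so this spread also holds any genotype difference in the change over time.

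Circadian time counts hours from the start of the animal's subjective day, which an internal clock sets when no light signal is present. In this clock, CLOCK and BMAL1 (encoded by Arntl) switch on the Per and Cry genes, whose proteins then shut off their own transcription. In the mouse retina, photoreceptors and inner retinal neurons run such clocks, and dopamine and cyclic AMP carry opposite day and night signals between them. The eye also holds a lens, whose fibre cells are filled with crystallin proteins, a cornea, a sclera and a pigmented epithelium. Whole-eye preparations can also carry pieces of the striated muscles that move the eye.

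The deposited labels give ciliary body as tissue and a line of nonpigmented ciliary epithelium as cells, whereas the protocols describe whole eyes and the series title names the retina. The markers fitted neither a cell line nor isolated retina. The rod list held 6.76% and 6.51% of counts in the WT and cKO libraries of CT2. The 26 genes of the lens list held between 4.48% and 8.36% of all counts in the 12 libraries, and the 19 tested genes of the extraocular muscle list between 0.123% and 0.179%. Totals ran from 10466253 to 10686868 counts per library, and 15134 genes passed the filter on low counts. The targeted gene, Nr3c1, had a level at CT2 of 71.8 CPM (WT) and 38.8 CPM (cKO), and at CT22 of 60.6 and 49.6 CPM, where CPM are counts divided by the scaled library total. Its 6 cKO libraries ranged from 38.8 to 49.6 CPM and its 6 WT libraries from 55.4 to 76.0 CPM, without overlap. The values cover the whole gene and the whole eye, so reads of a deleted part and of cells that kept the gene were not separated. Nr3c1 itself did not pass the test between the times (log2 difference of CT2 minus CT22 -0.03 ± 0.11 SE, edgeR adjusted p = 0.954). In these bulk samples, fewer cells of a type and less RNA per cell cannot be told apart.

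Between CT22 and CT2, 67 of the 15134 genes passed edgeR's quasi-likelihood test at an adjusted p under 0.05, which is 0.443%. Of these, 39 were higher at CT2 (0.258% of genes tested) and 28 were lower (0.185%). Members of the lens list, mostly crystallins, made up 16 of the 39 higher genes, and members of the extraocular muscle list 8 of the 28 lower genes. The others included the photoreceptor genes Nr2e3 and Pde6c among the higher, and the dopamine receptor gene Drd4, the interferon regulator Irf7 and the immediate early gene Nr4a1 among the lower. An unadjusted p under 0.05 was reached by 1557 genes. When library totals were used with no TMM factor, the split became 32 higher and 36 lower, and the median log2 difference of all genes moved from 0.00 to -0.04. The genes that were called all had the same sign in both genotypes, which the call itself favours. Over all genes, 58.2% had the same sign in WT and cKO.

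**Figure D1:**
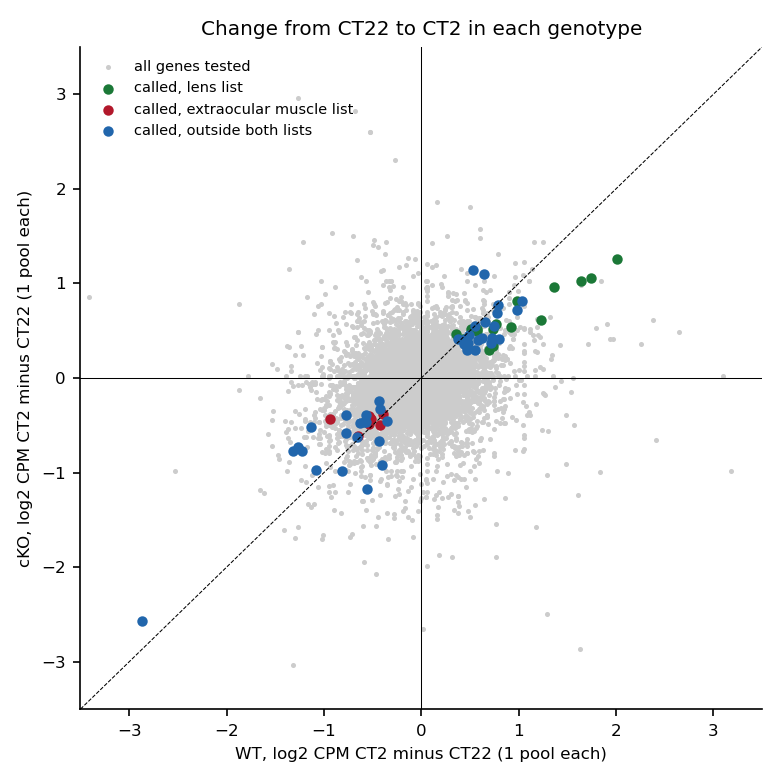
Each point is a gene, placed by its log2 CPM difference of CT2 minus CT22 in WT (horizontal axis) and in cKO (vertical axis), 1 pool per genotype and time. Grey points are all genes tested, of which 19 lie outside the axes. Coloured points are the called genes of the lens list (green), of the muscle list (red) and outside both lists (blue), and the dashed line marks equal change. The most changed lens genes lie below the line, with a larger difference in WT than in cKO.

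The lens genes were the group with the most called members. All 26 genes of the lens list were higher at CT2, and 16 of them passed the test. The median log2 difference of the list was 0.58, against 0.00 over all genes. It was 0.72 in WT and 0.52 in cKO. Summed over the list, WT stood at 72220 CPM at CT2 and 43490 CPM at CT22, and cKO at 85100 and 59000 CPM. The 8 libraries of the other times ranged from 61810 to 74980 CPM. The CT22 libraries were thus the lowest of the 12, with WT the lower of the pair, and the CT2 library of cKO was the highest. The CT2 library of WT lay within the range of the other times. Gene by gene, 18 of the 26 lens genes had both CT22 libraries below the other 10, which held for 2.09% of all genes. Both CT2 libraries were above the other 10 for 7 of the 26, against 2.54% of all genes.

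Among the lens genes, the largest differences past the test were those of the gamma crystallins, small proteins that pack densely in the lens fibre core. Crygd stood at 2808 and 3944 CPM in WT and cKO at CT2, and at 696 and 1651 CPM at CT22. Its log2 difference was 1.57 ± 0.23 (SE), with an edgeR adjusted p of 0.00425. Crygd at the other times ranged from 1927 to 2747 CPM, so that it was high in both CT2 libraries and low in both CT22 libraries. Crygc was at 2752 and 3545 CPM at CT2, and at 819 and 1706 CPM at CT22 (log2 difference 1.35 ± 0.20, adjusted p = 0.00425). Crygb was at 4019 and 5226 CPM at CT2, and at 1290 and 2570 CPM at CT22 (log2 difference 1.28 ± 0.18, adjusted p = 0.00425). In all of these genes the WT library of CT22 was the lowest of the 12 and the cKO library of CT22 the next lowest. The 3 transcripts resemble each other (81.3% identical over 598 aligned bases for Crygb and Crygc, 87.6% over 251 for Crygb and Crygd, 88.5% over 279 for Crygc and Crygd). The sources used here do not say how reads that match several of them were assigned.

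The neighbouring Crygb, Crygc and Crygd genes are shown by the 120 bases just before their starts, because these genes moved together and share sequence there. The sequences are from RefSeq (GRCm38.p6), run 5′ to 3′ on the gene's strand and end at the base before the start. Capitals mark TTTGTG and CTATATA, searched on both strands (CTATATA and its reverse complement overlap in Crygc and Crygd). These windows and elements were chosen after the values and sequences were seen.
Crygb, chr1:65082291-65082410, minus strand: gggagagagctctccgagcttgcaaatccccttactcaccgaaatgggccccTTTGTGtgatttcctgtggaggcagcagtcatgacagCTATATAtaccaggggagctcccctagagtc
Crygc, chr1:65073533-65073652, minus strand: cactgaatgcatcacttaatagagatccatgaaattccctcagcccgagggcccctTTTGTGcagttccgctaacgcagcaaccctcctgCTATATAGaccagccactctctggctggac
Crygd, chr1:65063441-65063560, minus strand: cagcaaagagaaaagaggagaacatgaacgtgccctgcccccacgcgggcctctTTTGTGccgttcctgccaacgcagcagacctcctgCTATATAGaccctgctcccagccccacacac

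In the full promoter windows, from 250 bases before to 50 after the start, CTATATA was found in those of Crygb, Crygc and Crygd and in no other of the 52 called genes with a promoter entry. It was present in 2.02% of the 32851 promoters in the table. TTTGTG was found in 13 of the 52, among them these genes together with Crybb1, Crybb3, Gja3 and Lgsn of the lens list, against 17.7% of all promoters. In this and the later motif comparisons, the called set was counted by gene and the background by promoter entry. The shares are therefore not strictly comparable. A match is a description of letters and does not show a binding site.

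Other crystallins moved with smaller differences. Crybb3, a beta crystallin, was at 1463 and 1916 CPM at CT2 against 737 and 1089 CPM at CT22 (log2 difference 0.89 ± 0.12, edgeR adjusted p = 0.00368). Crybb1 was at 1650 and 1892 CPM against 870 and 1302 CPM (0.72 ± 0.12, adjusted p = 0.00996). Cryba1 was at 6073 and 6713 CPM against 3639 and 4682 CPM (0.62 ± 0.09, adjusted p = 0.00425). In each of these genes both CT2 values lay above both CT22 values, which the call itself favours and which was not counted over all genes. Cryab, which encodes the small heat shock protein alpha B crystallin, was at 4305 and 5175 CPM against 2537 and 3490 CPM (0.66 ± 0.10, adjusted p = 0.00648). Cryba2, Cryba4 and Crygs, named after their values were seen, also passed, with log2 differences of 0.41, 0.52 and 0.54.

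Genes of lens fibre structure and maturation rose as well. Dnase2b encodes the acid DNase that breaks down the nuclei of maturing fibre cells. It was at 26.0 and 31.0 CPM at CT2 and at 9.99 and 15.8 CPM at CT22 (log2 difference 1.15 ± 0.17, edgeR adjusted p = 0.00425). Lim2, an intrinsic membrane protein of fibre cells, was at 415 and 468 CPM at CT2 and at 280 and 332 CPM at CT22 (0.53 ± 0.08, adjusted p = 0.00425). The caspase inhibitor gene Birc7 was at 44.0 and 45.0 CPM at CT2 and at 18.7 and 29.3 CPM at CT22 (0.90 ± 0.14, adjusted p = 0.00648). All of these had both CT22 libraries below every other library. The filament gene Bfsp1, the connexin gene Gja3 and Lgsn, which encodes lengsin, passed too, with log2 differences of 0.49, 0.42 and 0.53, and were named after their values were seen.

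The remaining 10 lens genes did not pass, and some varied widely between pools. Cryge was at 365 and 584 CPM in WT and cKO at CT2, against 3.39 and 140 CPM at CT22, and its 8 other libraries ran from 103 to 473 CPM. Its fitted log2 difference of 2.93 ± 0.72 had an edgeR adjusted p of 0.101. Crygf was at 280 and 378 CPM against 5.04 and 113 CPM (2.64 ± 0.61, adjusted p = 0.0777), and Cryga at 55.8 and 131 CPM against 2.93 and 31.2 CPM (2.46 ± 0.68, adjusted p = 0.161). The lowest value of each of these 3 genes at CT2 and CT22 was that of the WT library of CT22. Cryaa, which encodes alpha A crystallin, was at 19588 and 23035 CPM against 12595 and 16966 CPM (0.53 ± 0.12, adjusted p = 0.0619). These genes were picked for mention after their values were seen.

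The lens result depended on single libraries. The number of lens genes past the test was 0 without the CT2 library of cKO, 3 without the CT22 library of WT, 6 without the CT2 library of WT and 16 without the CT22 library of cKO. Crygb, Crygc and Crygd each passed in 18 of the 19 other analyses that included them. Several genes outside the lens list were also higher at CT2. Fabp5, which encodes a fatty acid-binding protein, was at 1023 and 1192 CPM at CT2 against 610 and 812 CPM at CT22 (log2 difference 0.64 ± 0.11, edgeR adjusted p = 0.00882), and both its CT2 libraries were the highest of the 12. The small heat shock gene Hspb1 was at 374 and 408 CPM against 250 and 308 CPM (0.49 ± 0.09, adjusted p = 0.0258). Lenep, a gene of the lens epithelium, and Lctl, a klotho relative expressed in the lens, were noticed after their values were seen and had log2 differences of 0.59 and 0.52. Tcp11, first described in testis, was at 80.7 and 97.1 CPM against 40.6 and 58.9 CPM (0.84 ± 0.11, adjusted p = 0.00368). Snx22, a sorting nexin, and Metrnl, a secreted factor, had log2 differences of 0.92 ± 0.16 and 0.74 ± 0.10. Both CT22 libraries were below all 10 others in Snx22, Metrnl, Tcp11, Fabp5, Hspb1 and Lctl, but not in Lenep. This order held for 18 of the 26 lens genes. It also held for 11 of the 23 higher genes outside the lens list, among them Pdzph1 and Chst3. Whether the lens share of the pools had a part in these differences was not tested.

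**Figure D2:**
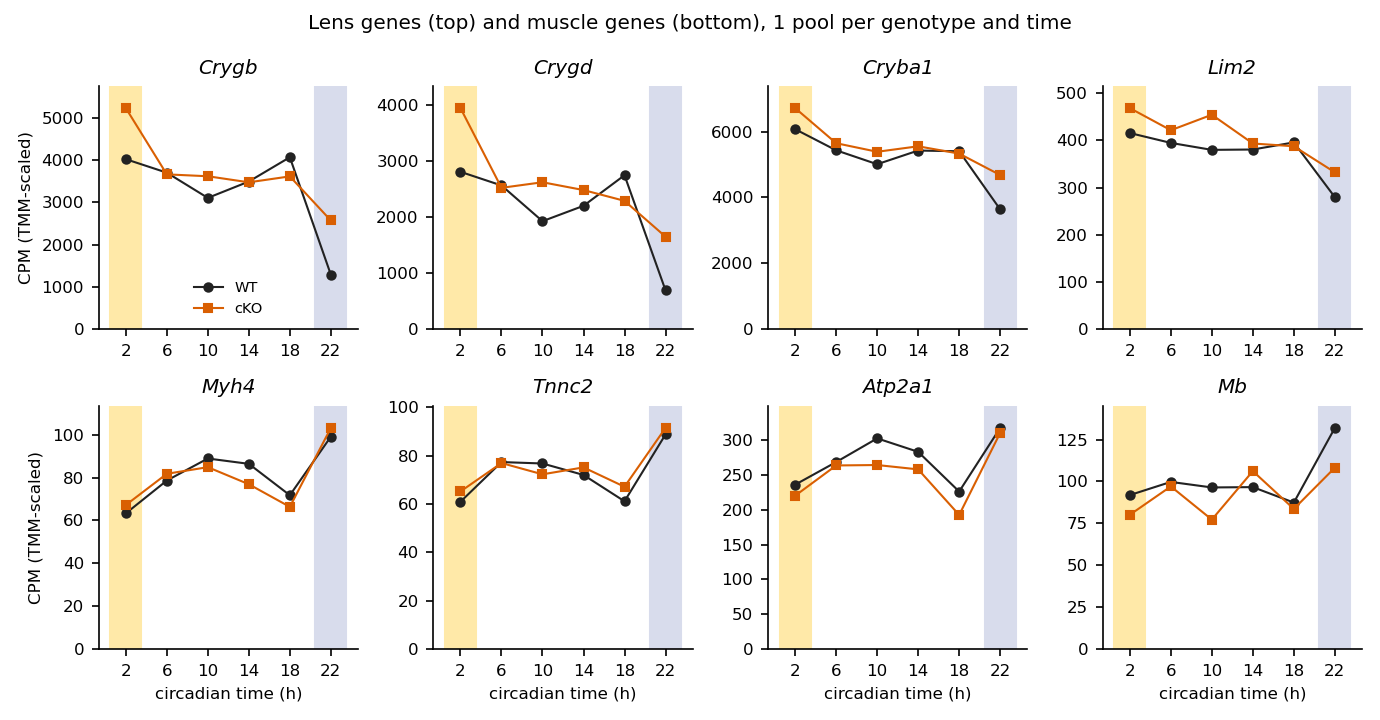
CPM (vertical axes, from 0) of 4 lens genes and 4 muscle genes in each of the 12 libraries against circadian time in hours, WT in black circles and cKO in orange squares. Each point is 1 pool of 3 mice, and the shaded bands mark CT2 and CT22. The lens genes are lowest at CT22 in both genotypes, and Myh4, Tnnc2, Atp2a1 and Mb are highest there.

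Genes of striated muscle moved the other way. All 19 tested genes of the extraocular muscle list were lower at CT2, and 8 passed the test, with a list median of -0.36 on the log2 scale (-0.40 in each genotype). Summed over the list, WT stood at 1302 CPM at CT2 and 1739 CPM at CT22, and cKO at 1305 and 1726 CPM. The other times ranged from 1241 to 1606 CPM, so both CT22 libraries were above every other library and both CT2 libraries were near the lower end, where the CT18 libraries also lay. Both CT22 libraries were above the other 10 for 8 of the 19 genes, against 1.36% of all genes, and both CT2 libraries were below the other 10 for 2, against 2.59%. Myh13, the superfast myosin of eye muscles, did not pass the filter on low counts.

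Myh4 encodes the myosin heavy chain of fast type IIb fibres. It was at 63.3 and 67.2 CPM in WT and cKO at CT2 and at 99.1 and 103 CPM at CT22 (log2 difference -0.63 ± 0.08, edgeR adjusted p = 0.00301). Myh4 was, with Irf7, the only gene that passed in each of the 20 alternatives. Myh1, the IIx myosin, was at 25.7 and 29.7 CPM at CT2 and at 49.2 and 40.1 CPM at CT22 (-0.68 ± 0.11, adjusted p = 0.0083). The fast troponin C gene Tnnc2 was at 60.9 and 65.2 CPM at CT2 and at 88.7 and 91.4 CPM at CT22 (-0.51 ± 0.07, adjusted p = 0.00394). Atp2a1, the calcium pump of the fast-fibre reticulum, was at 236 and 220 CPM at CT2 and at 318 and 311 CPM at CT22 (-0.46 ± 0.07, adjusted p = 0.00443). All of these were lower in both CT2 pools than in either CT22 pool. The call itself favours such a separation, which was not counted over all genes. The myosin light chain genes Mylpf and Myl1 fell too, with log2 differences of -0.47 and -0.39, as did Mb, which encodes myoglobin, and the troponin gene Tnnt3, with -0.48 and -0.47. Mb and Tnnt3 were named after their values were seen. Fewer genes of the muscle list passed when any 1 of the CT2 and CT22 libraries was left out.

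Tnnt1, the slow troponin T gene, was at 19.3 and 17.1 CPM at CT2 and at 20.2 and 17.0 CPM at CT22 (log2 difference -0.03 ± 0.12, edgeR adjusted p = 0.956). Myh2, the IIa myosin, was at 25.6 and 22.4 CPM against 31.4 and 23.5 CPM (-0.19 ± 0.13, adjusted p = 0.678). Neither passed, and both genes were chosen for mention with their values known. Outside the list, the sarcomere genes Tcap and Myot passed as well. Tcap was at 18.9 and 19.1 CPM at CT2 and at 32.5 and 28.6 CPM at CT22 (-0.69 ± 0.13, adjusted p = 0.0203). Its CT22 values lay within the 22.1 to 48.9 CPM of the other times, and its CT2 libraries were the lowest of all. Myot, which encodes a Z-disc protein, was at 6.99 and 5.58 CPM at CT2 and at 15.03 and 11.2 CPM at CT22 (-1.06 ± 0.19, adjusted p = 0.0157).

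Myh1 and Myh4 lie in 1 myosin cluster and moved together, so the sequences before their starts are shown. They share a run of 20 bases, in capitals, in RefSeq's GRCm38.p6 promoters, and the windows were chosen after the values were seen. Their transcripts are 89.9% identical over 5936 aligned bases, so reads could be shared between them.
Myh1, chr11:67199897-67199996, plus strand: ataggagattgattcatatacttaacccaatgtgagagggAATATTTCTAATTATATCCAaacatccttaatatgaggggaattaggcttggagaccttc
Myh4, chr11:67237609-67237708, plus strand: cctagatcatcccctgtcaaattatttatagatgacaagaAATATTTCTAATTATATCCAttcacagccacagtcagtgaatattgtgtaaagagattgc

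Lists for other tissues around the retina also had lower medians at CT2, with few calls. All 16 genes of the stroma and sclera list were lower (median -0.30) and none passed, while 5 had an unadjusted p under 0.05. Their summed level was 1700 and 1858 CPM at CT2, 2183 and 2197 CPM at CT22, and from 1654 to 3080 CPM at the other times, so CT2 and CT22 did not stand outside the rest. Dcn, which encodes decorin, was at 348 and 341 CPM at CT2 and at 572 and 433 CPM at CT22 (log2 difference -0.52 ± 0.22, edgeR adjusted p = 0.408). Of the pigment epithelium and melanocyte list 12 of 13 were lower (median -0.19), of the ciliary body list 10 of 12 (-0.21), of the vessel list 12 of 15 (-0.25) and of the cornea and conjunctiva list 14 of 18 (-0.16), with no call in any of these 4 lists. The cornea and conjunctiva median was -0.26 in WT and -0.03 in cKO. The water channel gene Aqp1, of the ciliary body list, was at 257 and 251 CPM against 308 and 358 CPM and did not pass (-0.39 ± 0.08, adjusted p = 0.0577). Krt14, a basal epithelial keratin of the cornea list, was at 85.8 and 86.9 CPM against 104 and 150 CPM (-0.54 ± 0.11, adjusted p = 0.0512). C1qtnf5, a pigment epithelium gene outside the lists, passed, with 22.0 and 20.8 CPM against 29.8 and 33.1 CPM (-0.55 ± 0.10, adjusted p = 0.0166).

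**Figure D3:**
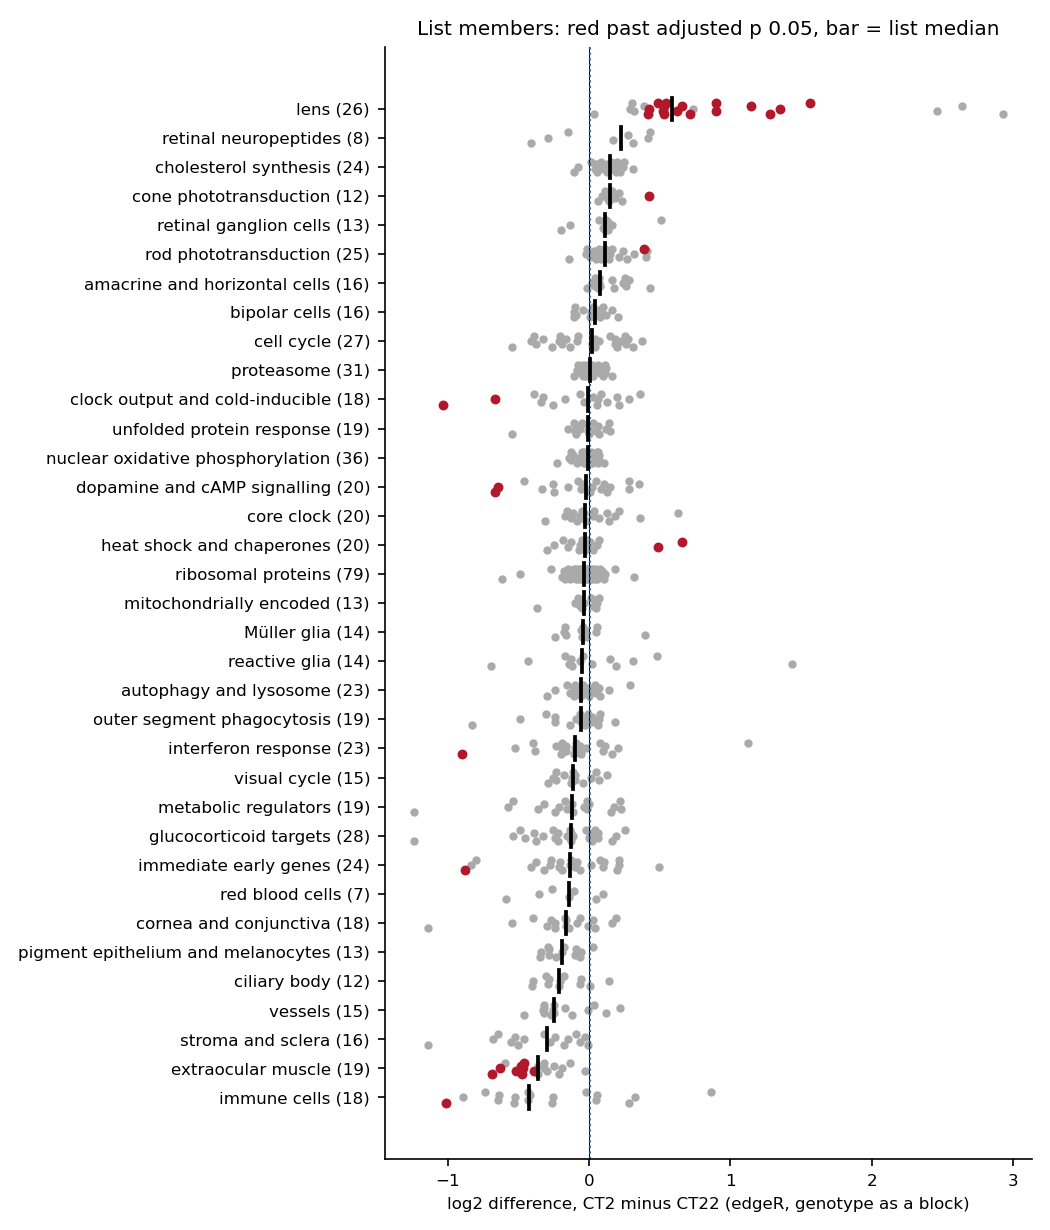
Log2 difference of CT2 minus CT22 (horizontal axis) for the tested members of each of 35 gene lists, sorted by list median, with the number tested in brackets. Each point is a gene, red where it passed the test, and black bars are list medians. The lens list lies to the right of 0 and the muscle and stroma lists to the left.

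In the immune cell list 13 of 18 tested genes were lower at CT2 and 5 were higher, with a median of -0.42, and 1 passed. Their summed level was 263 and 280 CPM in WT and cKO at CT2 and 439 and 406 CPM at CT22, and the other times ranged from 282 to 440 CPM. Lyz2, the lysozyme of macrophages, was at 76.6 and 90.8 CPM at CT2 and at 180 and 155 CPM at CT22 (log2 difference -1.01 ± 0.16, edgeR adjusted p = 0.00648). Both CT22 values lay above the range of the other times, which was 88.3 to 146 CPM. Tyrobp, an adaptor of myeloid receptors, was at 5.17 and 4.14 CPM against 8.98 and 8.33 CPM but did not pass (-0.89 ± 0.20, adjusted p = 0.0728). The complement gene C1qa did not pass either, at 14.3 and 14.9 CPM against 20.5 and 28.3 CPM (-0.74 ± 0.18, adjusted p = 0.104). The 5 higher members, named after their values were seen, were Ms4a1, a B cell gene (0.87 ± 0.35, adjusted p = 0.395), and Cx3cr1, S100a9, P2ry12 and Aif1, whose log2 differences of 0.05 to 0.32 did not pass. Red blood cell genes had a median of -0.14 with 0 of 7 past the test and 0 at an unadjusted p under 0.05, and the alpha globin gene Hba-a2 was at 79.4 and 83.1 CPM at CT2 and at 99.4 and 81.4 CPM at CT22. Slc4a1, the band 3 gene of red cells, had no count in the 4 libraries, which allows up to 0.289 CPM per library.

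Genes outside the list that are known from macrophages passed as well. Cd5l, a protein secreted by tissue macrophages, had 3 counts in each library at CT2, and 36 counts in WT and 28 in cKO at CT22. The ratio of CT22 to CT2 was 10.3, with an exact 95% interval of 4.5 to 29.2 that covers counting error only (edgeR adjusted p = 0.0313). Retnla, a marker of alternatively activated macrophages, was at 6.71 and 6.74 CPM at CT2 and at 17.0 and 11.6 CPM at CT22 (log2 difference -1.08 ± 0.16, adjusted p = 0.00603). Both of its CT2 libraries were the lowest of the 12. Apart from these macrophage genes, the cytochrome P450 gene Cyp2f2 passed too. It was at 40.9 and 36.8 CPM at CT2 and at 90.0 and 52.7 CPM at CT22 (-0.85 ± 0.15, adjusted p = 0.0143). Its CT22 value in cKO fell below the 53.2 to 91.1 CPM of the other times.

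Irf7, the transcription factor that amplifies type I interferon responses, had the smallest adjusted p of all genes. It was at 37.8 and 32.5 CPM in WT and cKO at CT2 and at 66.5 and 64.6 CPM at CT22 (log2 difference -0.90 ± 0.09, edgeR adjusted p = 0.000752). It was also between 28.2 and 37.0 CPM at CT6 and CT10 and between 60.5 and 79.7 CPM at CT14 and CT18, so the 6 libraries of CT2, CT6 and CT10 all lay below the other 6. The interferon list as a whole did not share this size of difference. Of its 23 genes 17 were lower at CT2, with a median of -0.10, and Irf7 was the only one to pass. The list median was -0.28 in WT and 0.02 in cKO, and 12 of the 23 had the same sign in both. Oasl2, an interferon-induced gene, was at 30.9 and 36.6 CPM against 46.3 and 41.9 CPM (-0.39 ± 0.11, adjusted p = 0.158), and Oas2 was at 3.16 and 3.76 CPM against 2.02 and 1.14 CPM (1.12 ± 0.36, adjusted p = 0.266).

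Drd4 encodes the D4 dopamine receptor of photoreceptors, which lowers cyclic AMP. It was at 147 and 122 CPM at CT2 and at 194 and 231 CPM at CT22 (log2 difference -0.67 ± 0.10, edgeR adjusted p = 0.00648). In every library of CT2, CT6 and CT10 it was at most 147 CPM, and in every library of CT14, CT18 and CT22 at least 194 CPM. Sik1, a kinase gene induced by cyclic AMP, was at 13.4 and 14.7 CPM at CT2 and at 21.3 and 22.7 CPM at CT22 (-0.64 ± 0.12, adjusted p = 0.0228), with both CT2 libraries the lowest of the 12. The related kinase gene Sik2 was at 60.3 and 45.5 CPM against 73.8 and 71.7 CPM (-0.46 ± 0.11, adjusted p = 0.0824), and the cyclic AMP phosphodiesterase gene Pde8a at 58.6 and 52.3 CPM against 68.4 and 71.4 CPM (-0.33 ± 0.09, adjusted p = 0.133). Neither passed. CT2 and CT22 did not overlap in them, a separation that was not counted over all genes. Adcy1, the calcium-stimulated adenylyl cyclase, was at 207 and 242 CPM against 179 and 189 CPM (0.28 ± 0.08, adjusted p = 0.168). In the dopamine and cyclic AMP list 10 of 20 genes were higher and 10 lower, and Drd4 and Sik1 were the 2 that passed. Th, the enzyme that limits dopamine synthesis, was between 1.23 and 1.82 CPM in the 4 libraries and did not differ detectably at this depth (0.28 ± 0.42, adjusted p = 0.872).

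Nr4a1, an orphan nuclear receptor of the immediate early class, was at 13.4 and 10.8 CPM at CT2 and at 19.8 and 24.6 CPM at CT22 (log2 difference -0.88 ± 0.15, edgeR adjusted p = 0.0125). Its highest values came earlier in the subjective night, at 78.0 and 65.8 CPM at CT14 and 53.9 and 41.0 CPM at CT18, so CT22 lay between those and the day. Nr4a3, a relative, was at 1.63 and 1.25 CPM against 2.84 and 2.18 CPM (-0.80 ± 0.33, adjusted p = 0.401). Klf2 was at 3.64 and 5.49 CPM against 7.70 and 8.61 CPM (-0.83 ± 0.26, adjusted p = 0.248). Fos was at 12.7 and 10.0 CPM against 13.7 and 12.3 CPM, and Egr1 at 11.4 and 10.2 CPM against 12.2 and 13.8 CPM. Neither passed, with adjusted p of 0.701 and 0.647, and both were picked after their values were seen. Of the 24 tested immediate early genes 16 were lower at CT2 (median -0.13) and Nr4a1 was the 1 that passed.

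The 250 bases before the Nr4a1 start are shown because they hold 4 copies of TGCGTCA on either strand, in capitals here. This motif was chosen after the sequence was seen. It was in 2.12% of all RefSeq promoters (GRCm38.p6) and in no other called gene with an entry.
Nr4a1, chr15:101266596-101266845, plus strand: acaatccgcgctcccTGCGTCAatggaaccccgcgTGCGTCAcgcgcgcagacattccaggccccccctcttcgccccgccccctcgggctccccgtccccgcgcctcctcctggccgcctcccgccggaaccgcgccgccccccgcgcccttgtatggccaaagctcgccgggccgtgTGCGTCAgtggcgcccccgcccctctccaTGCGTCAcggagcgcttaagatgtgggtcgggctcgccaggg

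Motifs of circadian promoters were each found in at most 1 of the called genes with an entry. The E-box CACGTG, bound by CLOCK and BMAL1, was in the promoter of 1 of the 52 called genes with an entry (Abca8a), against 7.15% of all promoters. The D-box, as TTATGTAA or TTACGTAA, was in 1 (Lgsn), against 1.06%, and the full cyclic AMP element TGACGTCA in 0, against 1.79%. Both strands were searched in the window from 250 bases before to 50 after the start. With 52 genes, counts of 0 or 1 cannot show whether these motifs were rarer or more common than among all promoters.

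**Figure D4:**
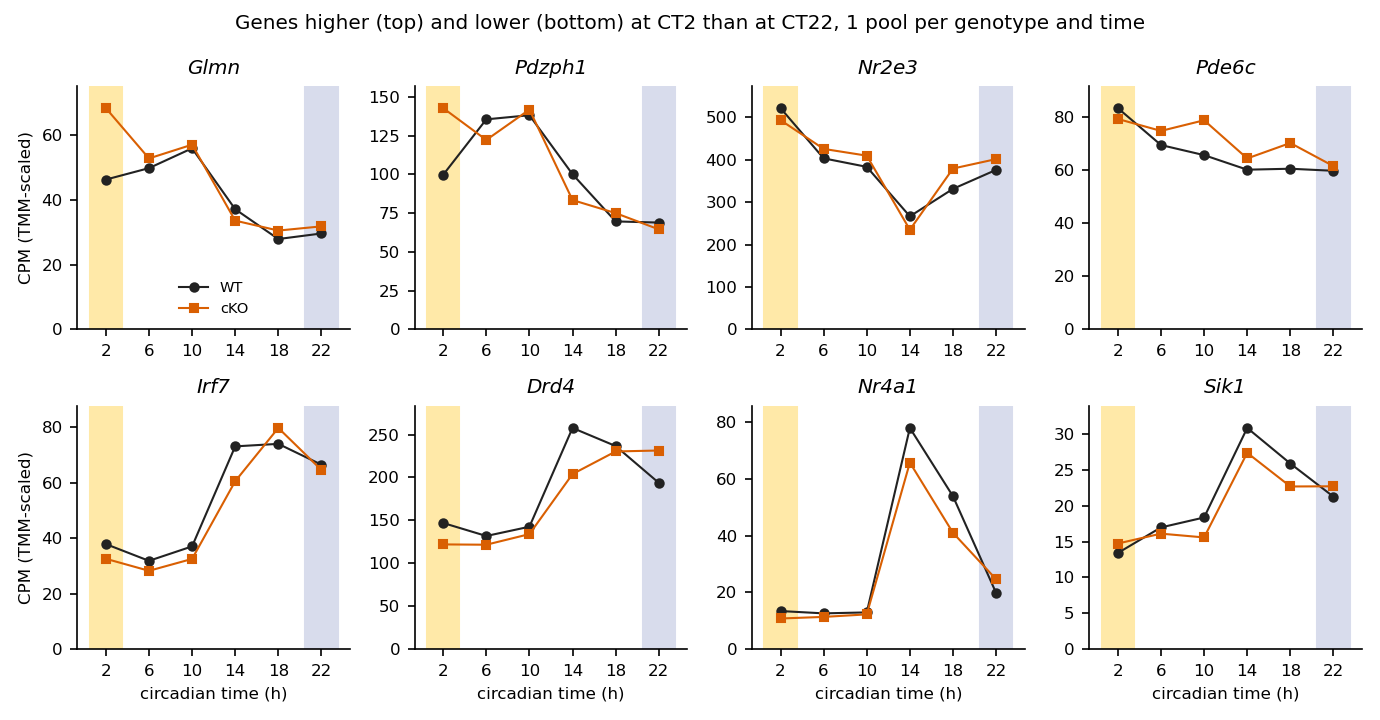
CPM (vertical axes, from 0) of 4 genes that were higher and 4 that were lower at CT2 than at CT22, in the 12 libraries against circadian time in hours, WT in black circles and cKO in orange squares. Each point is 1 pool of 3 mice, and the shaded bands mark CT2 and CT22. Irf7, Drd4 and Sik1 are low from CT2 to CT10 and high from CT14 to CT22, while Nr4a1 has already come down at CT22.

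Photoreceptor genes were mostly somewhat higher at CT2. Of 25 rod genes 22 were higher, with a median of 0.11 and 1 call, and all 12 cone genes were higher, with a median of 0.15 and 1 call. The rod share of counts at CT22 was 6.08% in WT and 6.52% in cKO, against the 6.76% and 6.51% of CT2. Nr2e3 encodes the nuclear receptor that keeps rods from switching on cone genes. It was at 522 and 494 CPM at CT2 and at 376 and 402 CPM at CT22 (log2 difference 0.39 ± 0.08, edgeR adjusted p = 0.0483), and both CT2 libraries were the highest of the 12. Its lowest values were 267 and 235 CPM at CT14. Pde6c, the cone phosphodiesterase, was at 83.5 and 79.4 CPM against 59.9 and 61.6 CPM (0.43 ± 0.08, adjusted p = 0.0247), again the highest in both CT2 libraries. Nr2e3 passed in 10 of the 20 alternatives and Pde6c in 11.

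Several other genes of the rod list were higher at CT2 without passing. Guca1b, which encodes a calcium sensor of guanylate cyclase, was at 1004 and 1044 CPM at CT2 and at 756 and 790 CPM at CT22 (log2 difference 0.41 ± 0.09, edgeR adjusted p = 0.0777). Sag, rod arrestin, which ends the light response, was at 3534 and 4077 CPM against 2539 and 3202 CPM (0.41 ± 0.10, adjusted p = 0.100). Pde6b, a subunit of the rod phosphodiesterase, was at 1562 and 1601 CPM against 1269 and 1354 CPM (0.27 ± 0.08, adjusted p = 0.166). Both CT2 pools exceeded both CT22 pools in all of these, which was not counted over all genes. Among genes of retinal neurons, 15 of 16 amacrine and horizontal cell genes were higher at CT2 (median 0.07), 11 of 13 ganglion cell genes (0.12) and 11 of 16 bipolar cell genes (0.04), with no call. Over all genes 51% were higher. WT and cKO changed in the same direction in 8 of the 16, 9 of the 13 and 11 of the 16, against 58.2% of all genes. Calb1, a calcium buffer of horizontal cells, was at 54.0 and 48.4 CPM against 45.0 and 40.5 CPM (0.26 ± 0.08, adjusted p = 0.217). Müller glia genes had a median of -0.04 with 3 of 14 higher. Lists for the visual cycle (4 of 15 higher, -0.11) and for outer segment phagocytosis (6 of 19 higher, -0.06) had no call. Axl, a receptor related to the phagocytosis receptor Mertk, was at 45.7 and 50.4 CPM against 65.3 and 69.3 CPM (-0.49 ± 0.12, adjusted p = 0.116).

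Core clock genes differed little between CT22 and CT2. None of the 20 passed, 4 had an unadjusted p under 0.05 (3 of these are named here), and 9 were higher and 11 lower, with a median of -0.03. Ciart, a repressor of the clock, had the largest difference, at 10.1 and 13.2 CPM at CT2 against 6.60 and 8.42 CPM at CT22 (log2 difference 0.63 ± 0.21, edgeR adjusted p = 0.29), and both CT22 libraries were the lowest of the 12. It passed in 1 of the alternatives, in which the 4 libraries were fitted alone (adjusted p = 0.0393). Dbp, an output transcription factor of the clock, was at 116 and 138 CPM against 105 and 115 CPM (0.21 ± 0.08, adjusted p = 0.384), also lowest at CT22. Cry1 was at 54.0 and 51.3 CPM against 45.0 and 48.0 CPM (0.18 ± 0.08, adjusted p = 0.423).

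The clock genes named next had differences of at most 0.36 on the log2 scale. Arntl was at 85.6 and 74.5 CPM at CT2 and at 77.8 and 78.6 CPM at CT22 (0.03 ± 0.09), and its partner Clock at 113 and 114 CPM against 109 and 96.3 CPM (0.14 ± 0.07). Npas2, a relative of Clock, was at 7.09 and 6.16 CPM against 5.23 and 5.11 CPM (0.36 ± 0.21). The Per genes were 0.03 ± 0.09 (Per1), -0.07 ± 0.13 (Per2) and -0.13 ± 0.09 (Per3), and Cry2 was 0.13 ± 0.08. Among repressors and activators of Arntl, the log2 differences were 0.07 ± 0.07 for Nr1d1, -0.09 ± 0.06 for Nr1d2, -0.05 ± 0.08 for Rora and -0.16 ± 0.09 for Rorb. Tef and Hlf, relatives of Dbp, were at -0.02 ± 0.07 and -0.04 ± 0.07, and their antagonist Nfil3 at -0.17 ± 0.12. The repressors Bhlhe40 and Bhlhe41 were at -0.05 ± 0.07 and -0.12 ± 0.07. The adjusted p of these genes lay between 0.546 and 0.943 in edgeR.

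In the list of clock outputs and cold-inducible genes 9 of 18 were higher and 9 lower, and Drd4 and Fmo2 passed. Fmo2, a flavin monooxygenase gene, was at 6.90 and 6.74 CPM at CT2 and at 16.9 and 11.3 CPM at CT22 (log2 difference -1.04 ± 0.20, edgeR adjusted p = 0.0247), and both CT2 libraries were the lowest of the 12. Rbm3, which encodes a cold-inducible RNA-binding protein, was at 146 and 136 CPM against 127 and 120 CPM (0.20 ± 0.07, adjusted p = 0.322). Mtnr1b, a melatonin receptor gene, had no count in the 4 libraries. Among glucocorticoid targets, of interest because cKO animals lack the receptor in the retina, 0 of 28 passed and 7 had an unadjusted p under 0.05. They had a median of -0.13, with 19 lower. Tsc22d3, which encodes the glucocorticoid-induced leucine zipper, was at 41.2 and 40.5 CPM in WT and cKO at CT2 and at 51.7 and 50.5 CPM at CT22 (-0.32 ± 0.09, adjusted p = 0.152). Pdk4, a kinase gene that limits glucose oxidation, was at 2.11 and 1.83 CPM against 5.23 and 4.07 CPM (-1.24 ± 0.33, adjusted p = 0.142).

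Genes of cholesterol synthesis were nearly all higher at CT2, each by a small amount. Of the 24 genes 22 were higher, with a median of 0.15. None passed, and 10 had an unadjusted p under 0.05. Both CT2 libraries were above the other 10 in 6 of them. Hmgcs1, which makes the HMG-CoA used for sterols, was at 189 and 199 CPM at CT2 and at 168 and 161 CPM at CT22 (log2 difference 0.24 ± 0.07, edgeR adjusted p = 0.185). Idi1, an isomerase of the isoprenoid branch, was at 84.7 and 94.6 CPM against 74.9 and 75.8 CPM (0.25 ± 0.07, adjusted p = 0.194). In the heat shock list Hspb1 and Cryab, described with the lens, were the 2 that passed, while 14 of 20 members were lower. The list medians were 0.01 for the proteasome, -0.03 for ribosomal proteins, -0.04 for mitochondrially encoded genes and -0.01 for nuclear oxidative phosphorylation, with no call.

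The 67 called genes were then described at the other times. In the other 8 libraries, the subjective day (CT6 and CT10) was compared with the subjective night (CT14 and CT18), with genotype as a block. This comparison was chosen after the data were seen. It is not an independent follow-up, because the same 8 libraries helped to set the spread by which the 67 genes were called. It called 379 of the 15134 genes (2.5%), 140 higher and 239 lower in the day. Of the 67 genes, 14 passed it in the same direction and none in the opposite one. None of the 16 lens genes and none of the 8 muscle genes were among the 14. Of the 23 other genes higher at CT2 there were 7, and of the 20 other genes lower at CT2 there were 7. The 4 libraries of CT6 and CT10 lay all above or all below those of CT14 and CT18 for 8 of the 23, for 10 of the 20, for 0 of the lens and muscle genes and for 10.1% of all genes tested.

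Among the 14, Glmn, which encodes glomulin, a regulator of cullin ligases, was at 46.3 and 68.4 CPM at CT2 and at 29.6 and 31.8 CPM at CT22 (log2 difference 0.89 ± 0.12, edgeR adjusted p = 0.00368). In the other 8 libraries its day minus night difference was 0.74 ± 0.08 (adjusted p = 0.000193). Pdzph1 was at 99.8 and 143 CPM at CT2 and at 68.9 and 64.6 CPM at CT22 (0.86 ± 0.13, adjusted p = 0.00559), with a day minus night difference of 0.71 ± 0.09 elsewhere. Glmn was thus high from CT2 to CT10, and both genes were low from CT18 to CT22. Pdzph1 in WT was no higher at CT2 than at CT14 (100 CPM), and lower than at CT6 and CT10 (136 and 138 CPM). Irf7 had a day minus night difference of -1.15 ± 0.08 (adjusted p = 4.4e-06), Drd4 of -0.81 ± 0.06 (adjusted p = 3.72e-06) and Nr4a1 of -2.28 ± 0.15 (adjusted p = 3.03e-06) in the other 8 libraries. Sik1 had one of -0.67 ± 0.09, Fmo2 of -0.71 ± 0.16 and Mettl7a1, a methyltransferase-like gene, of -0.40 ± 0.07. The remaining 6, picked after their values were seen, were Ankrd33b, BC027072, Klhl3, Med13l and Pcmtd2 among the higher genes, and Gsta3 among the lower. Med13l, a subunit of the Mediator kinase module, was at 113 and 112 CPM at CT2 and at 76.9 and 76.2 CPM at CT22 (0.55 ± 0.07, adjusted p = 0.00368). Gsta3, a glutathione transferase gene, was at 62.5 and 62.9 CPM against 96.4 and 87.8 CPM (-0.55 ± 0.09, adjusted p = 0.00648).

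**Figure D5:**
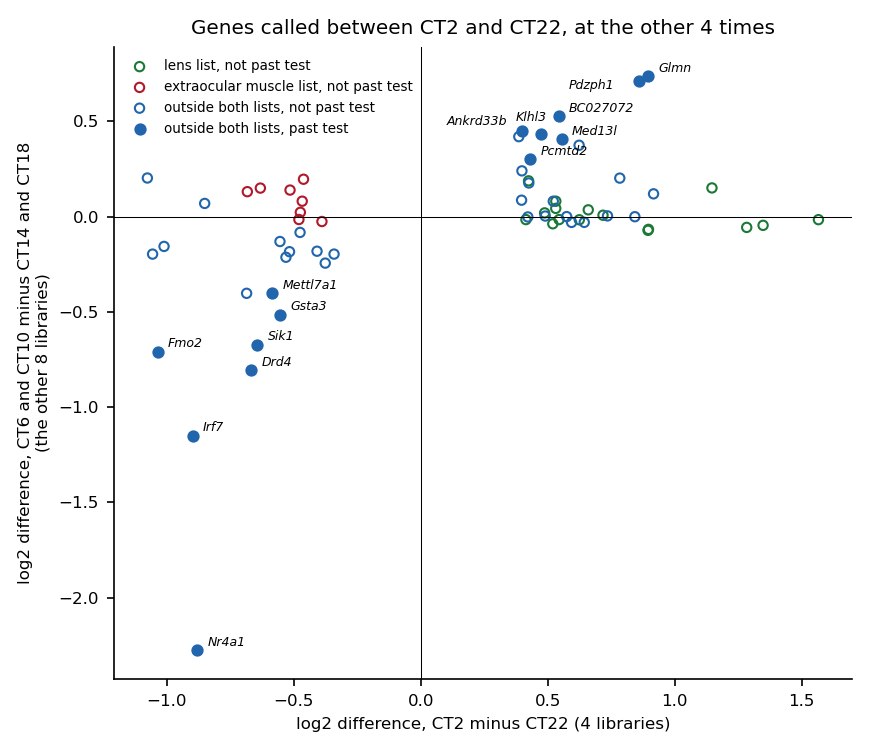
Each called gene is placed by its log2 difference of CT2 minus CT22 (horizontal axis) and by its log2 difference of CT6 and CT10 minus CT14 and CT18 in the other 8 libraries (vertical axis). Filled points passed the second comparison and are named; open points did not. Lens genes (green) and muscle genes (red) lie near 0 on the vertical axis, and called genes with a log2 difference of 2 or more in size are not drawn.

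Whether the change from CT22 to CT2 differed between genotypes was tested with 1 added term, coded as the cKO change minus the WT change. A single gene passed, Rps13-ps1 (0.00661% of genes tested), and 522 had an unadjusted p under 0.05. Rps13-ps1 is a processed copy of the ribosomal protein gene Rps13. It was at 91.4 CPM at CT2 and 5.04 CPM at CT22 in WT, and at 13.1 CPM at CT2 with no count at CT22 in cKO, which against a floor of 3 counts per library is at least 46.1-fold lower. It also passed the test between the times (edgeR adjusted p = 0.0247). Rps13 itself was at 91.2 and 187 CPM at CT2 and at 184 and 182 CPM at CT22. In the 4 WT libraries from CT2 to CT14 Rps13-ps1 lay between 91.4 and 107 CPM and Rps13 between 91.2 and 106 CPM, whereas in the other 8 libraries they lay between 0 and 13.1 CPM and between 180 and 198 CPM. The transcripts compared, of 2363 bases (Rps13) and 538 bases (Rps13-ps1), share a stretch of 180 aligned bases with no mismatch. The split of reads between the genes is thus uncertain. The split did not follow the genotype labels, since the WT libraries of CT18 and CT22 stood with those of cKO. For Rps13-ps1, a difference between times and one between pools of animals cannot be told apart.

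The genes next in order did not pass this test. Sprr1a, an epithelial cornified envelope gene, was at 2.3 and 1.16 CPM in WT and cKO at CT2 and at 0.825 and 7.38 CPM at CT22 (edgeR adjusted p = 0.237). The keratin gene Krt1 was at 3.16 and 2.41 CPM at CT2 and at 3.12 and 16.2 CPM at CT22 (adjusted p = 0.237). In both it was the CT22 library of cKO that was high. Ermard was at 68.2 and 45.4 CPM at CT2 and at 44.5 and 52.8 CPM at CT22, a change that was -0.84 ± 0.15 lower in cKO than in WT on the log2 scale (adjusted p = 0.237). Schip1 was at 23.6 and 44.0 CPM at CT2 and at 32.7 and 32.0 CPM at CT22 (0.94 ± 0.20, adjusted p = 0.512). For the lens list, whose medians were 0.72 in WT and 0.52 in cKO, no member passed the test of the difference.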

How the data were processed

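RNA-seq was run on pooled whole-eye RNA, 1 library per genotype and time. The authors deposited counts per gene, in a table they call raw data. The counts were whole numbers; aligner, counter, genome build, annotation and use of strand: not given in the sources used here. Of 32544 entries, 27 with names turned into dates (median 0.158% of counts) were left out. Genes were filtered with filterByExpr by genotype (minimum count 10, minimum total 15), scaled by TMM and tested with the quasi-likelihood F test of edgeR 4.0.16 in R 4.3.3. All 12 libraries were fitted with time as a 6-level factor and genotype as a block (5 residual degrees of freedom), and the coefficient was CT2 minus CT22. The genotype difference was 1 added term (4 degrees of freedom). The p-values were adjusted by Benjamini-Hochberg over all 15134 genes, and 0.05 was the threshold. SE is the one implied by the F statistic. CPM used TMM library sizes, and log2 CPM of single libraries a prior count of 2. Pools of a group may share unmeasured handling, and the biological coefficient of variation was estimated at 6.06%. Counts of the WT and cKO pools at each time differed beyond sampling noise (chi-square per degree of freedom 3.53 at CT2 and 4.98 at CT22). These chi-square values hold differences between genotypes as well as between pools. With 2 pools a side, an exact paired permutation test cannot go below p = 0.5, so no such test was used.

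The 35 gene lists and the rules for naming genes were chosen with earlier results of these data known, so no list was tested as a set. Genes named were the 15 with the largest difference in each direction past the test (average log2 CPM of at least 0, same sign in both genotypes, established name), all core clock genes, up to 6 of each other list by smallest p, up to 5 per direction in the genotype test, and Nr3c1; some that the rule allows are not reported here. The rule also asked for promoters of named genes with an E-box, D-box or cyclic AMP element. Of the 38 named called genes 32 had a promoter in RefSeq (GRCm38.p6) and 0 of these held one, so the promoters shown were chosen after their sequences were seen. Alternatives covered other scalings, filters and tools (DESeq2 1.42.0, limma 3.58.1), other model terms, and each library left out. Transcript identity was computed with Biopython 1.88 on GENCODE transcripts.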

Additional observations from a re-analysis of the deposited data

Results flagged for a closer look

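The change from CT22 to CT2 differed between the genotypes for Rps13-ps1, the only gene past the test of that difference. The fitted log2 change of cKO minus WT was 18.57, a value that rests on a library with no count and gives no bound on the size. The counts were 954 at CT2 and 55 at CT22 in WT, and 136 and 0 in cKO. No gene passed this test in limma-trend, where 535 genes had an unadjusted p under 0.05.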

How the results depend on the processing

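Over 20 alternatives, each called gene kept its direction wherever it was tested, while 976 gene values still passed and 347 did not. The 4 libraries fitted alone (1 residual degree of freedom) gave 441 calls (148 higher, 293 lower, 13 muscle genes), among them all 67 reported. With no filter there were 176 (79 higher, 97 lower). Leaving out 1 of the 4 libraries gave 11 to 51 calls (5 to 34 higher, 5 to 17 lower, 0 to 16 lens, 1 to 4 muscle). The count was 11 without the CT2 library of cKO, 16 without that of WT, 21 without the CT22 library of WT and 51 without that of cKO. Without both WT libraries of CT2 and CT22 it was 22 (9 higher, 13 lower, 4 lens, 1 muscle), and without both cKO libraries 37 (29 higher, 8 lower, 13 lens, 2 muscle). Without both CT18 libraries it was 149 (59 higher, 90 lower), without the WT library of CT18 148 (59 higher, 89 lower) and without both CT14 libraries 116 (61 lower). With lens genes removed, 23 higher and 28 lower genes passed, all among the 67. DESeq2 called 66, of which 53 were among the 67. The genotype difference called 7 genes with no filter, 2 without the CT18 or CT14 libraries and 0 in limma-trend (535 at an unadjusted p under 0.05). The comparison within the other 8 libraries called from 142 (without cKO at CT6) to 454 genes (without WT at CT14), with 236, 194, 220 and 199 without WT CT6, WT CT10, cKO CT10 or cKO CT18, and shared 12 to 17 genes with the 67. Of 210 recomputed list medians 68 moved and 18 changed sign, among them core clock, cell cycle and proteasome, but none of lens, muscle, stroma, rods, cones or cholesterol synthesis. The cause of these shifts was not tested. Depth limits genes of few counts: a count of 0 allows up to 0.275 to 0.289 CPM per library.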

Other observations

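Some lists described only in the figure of all lists had no gene past the test. Cell cycle genes were split, with 14 of 27 higher at CT2 and 6 at an unadjusted p under 0.05. Mcm6, a subunit of the replicative helicase, was at 11.4 and 12.8 CPM at CT2 and at 17.5 and 17.7 CPM at CT22 in WT and cKO (log2 difference -0.54 ± 0.14, edgeR adjusted p = 0.134), and Ccnd1, which encodes cyclin D1, at 76.6 and 75.5 CPM against 110 and 88.0 CPM (-0.37 ± 0.12, adjusted p = 0.248). Of 19 metabolic regulators 14 were lower at CT2. Txnip, an inhibitor of thioredoxin and glucose uptake, was at 78.6 and 85.1 CPM against 140 and 105 CPM (-0.57 ± 0.17, adjusted p = 0.194), and Cpt1a, which admits fatty acids to mitochondria, at 184 and 198 CPM against 160 and 166 CPM (0.23 ± 0.06, adjusted p = 0.158). None of these passed. The CT2 and CT22 pools did not overlap in them, which was not counted over all genes. Among 8 retinal neuropeptide genes, Penk, the enkephalin precursor, was at 64.6 and 68.4 CPM against 89.1 and 87.8 CPM (-0.41 ± 0.11, adjusted p = 0.142), and Npy at 13.03 and 14.1 CPM against 9.53 and 10.6 CPM (0.43 ± 0.16, adjusted p = 0.366). Of 14 reactive glia genes 6 were higher and 8 lower at CT2, with a median of -0.05. Edn2, an endothelin gene that photoreceptors express under stress, was at 2.49 and 4.43 CPM against 1.01 and 1.51 CPM (1.44 ± 0.35, adjusted p = 0.0975). C3 (-0.69 ± 0.21, adjusted p = 0.208) and A2m (-0.43 ± 0.12, adjusted p = 0.177) of the same list went the other way.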
